A study of Mus musculus with 12 samples.

Results

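The annexins are proteins that bind negatively charged phospholipids when calcium is present. They share a conserved core that attaches to the membrane and differ in their amino-terminal tails, which bind S100 proteins and other partners. They act in membrane repair, vesicle traffic, blood clotting and fibrinolysis and the control of inflammation, and in cartilage some of them sit in the matrix vesicles from which mineral forms. Measured here were 10 annexin genes, Anxa1 to Anxa9 and Anxa11, of 19505 named genes on the array. They were taken by gene symbol, and each had a single transcript cluster, the unit for which the array reports 1 value. The family was chosen by the measured signals of Anxa8, whose genotype change differed between the disc's tissues. That difference is therefore given as a description, and Anxa8 was tested only in comparisons averaged over both tissues or both genotypes.

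The samples came from lumbar discs (L1 to S1) of 12-month-old C57BL/6 mice. The nucleus pulposus (NP) is the gel-like core of the disc, whose cells descend from the notochord, and the annulus fibrosus (AF) is the fibrous ring around it. TonEBP, encoded by Nfat5, is a transcription factor that turns on osmoprotective genes in a hypertonic environment such as the disc. The 4 groups were NP of TonEBP +/- mice, NP of wild-type (WT) mice, AF of TonEBP +/- mice and AF of WT mice, with 3 samples each. The labels call the TonEBP +/- mice haploinsufficient, that is, with 1 working copy of the gene, and name no treatment in any group. Per the labels' protocols, the tissue of 1 animal was pooled into 1 sample, and the labels do not say which NP and AF samples came from the same mouse.

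Unless stated, values are log2 signals as the authors deposited them, so a difference of 1 is a 2-fold difference. Array medians were 6.82 to 6.87 in NP and 7.43 to 7.64 in AF. The interquartile range of the signals was 3.61 to 3.80 in NP and 2.36 to 3.11 in AF. With 3 arrays per group, the number of arrays sets the precision. The background level of an array was the 95th percentile of its background probe sets (7.11 to 7.33 in NP, 7.73 to 7.98 in AF), and a cluster over that level counted as above background. AF array 3 of TonEBP +/- stood apart, with an interquartile range of 3.11 against 2.36 to 2.66 on the other AF arrays. Nfat5 itself did not pass the test in either tissue: it was 0.50 higher in NP (95% interval -0.35 to 1.36, adjusted p = 1) and 0.09 higher in AF (-0.77 to 0.94, adjusted p = 0.923) of TonEBP +/- than of WT mice. No source used here says whether the Nfat5 probes match the sequence that the mutant allele lacks, so this gives no check of the genotypes, which are those of the labels throughout. The notochord and NP keratins Krt8 and Krt19 had signals of 16.86 to 17.69 on the NP arrays and of 6.25 to 11.37 on the AF arrays. Of 8 measured NP and notochord markers, 6 were higher in NP than in AF of each genotype; Foxa2 was above background on no array, and Noto, a notochord factor, did not differ beyond its error (averaged difference -0.16, adjusted p = 0.447). Of 8 AF and tendon markers, the fibrillar collagen genes Col1a1 and Col1a2 were lower in NP than in AF by -6.12 and -8.39 on average, but Fmod, a collagen-binding proteoglycan gene, was 5.37 higher in NP, and the regulators Scx and Mkx and the tendon markers Tnmd and Kera were above background on no array.

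**Figure D1:**
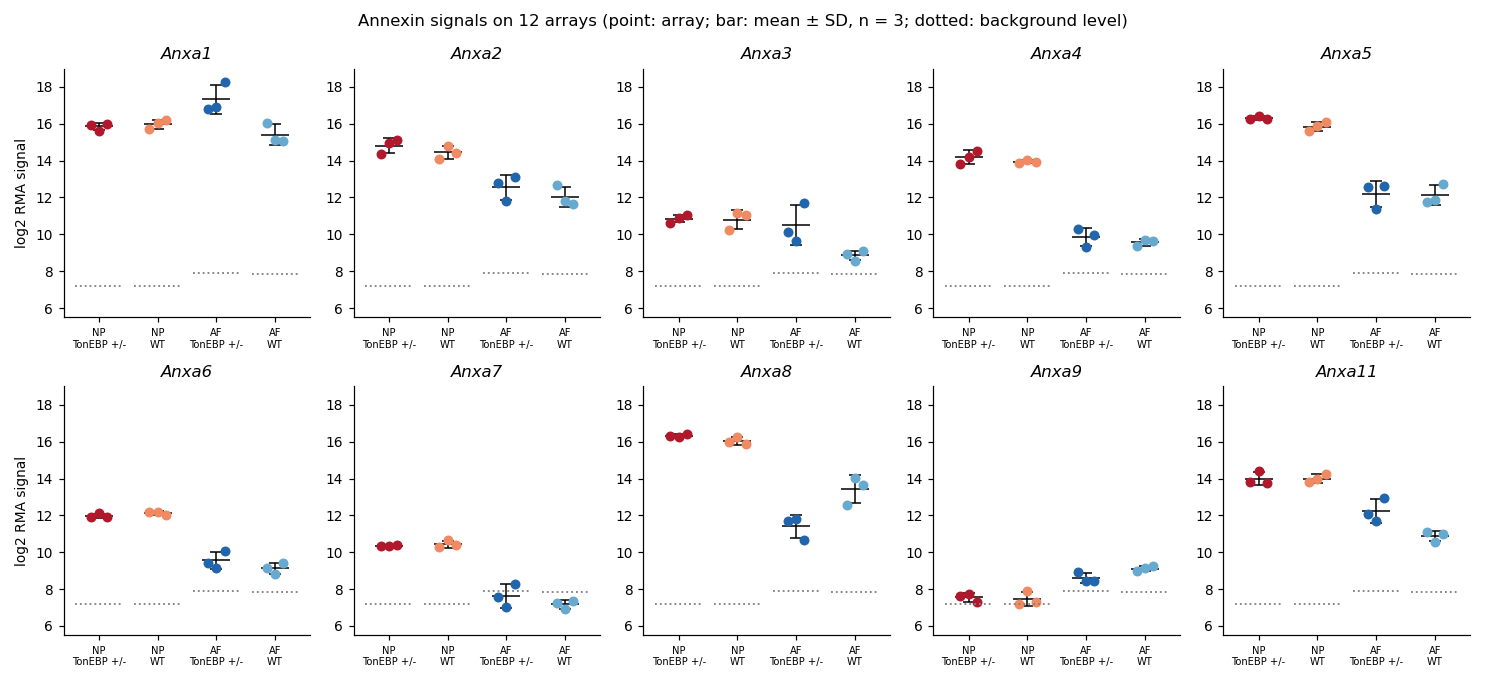
Log2 signal of the 10 annexins on each array (points), with the mean and SD of each group of 3 (bars) and the background level (dotted lines). NP groups stand left of AF groups and TonEBP +/- left of WT. Anxa4, Anxa5 and Anxa8 sit far higher in NP than in AF, and the AF points of Anxa1, Anxa3, Anxa8, Anxa9 and Anxa11 separate by genotype.

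In the AF, 3 annexins were higher in TonEBP +/- than in WT mice: Anxa1, a ligand of formyl peptide receptors that limits leukocyte recruitment, Anxa3, which is abundant in neutrophils, and Anxa11, which binds the calcium sensor Pdcd6 and tethers RNA granules to lysosomes. Their changes were 3.76-fold, 3.11-fold and 2.55-fold. Anxa8, an annexin known from epithelia and late endosomes, was 4.05-fold lower, as a description without a test. Of the 9 members tested, 3 passed at an adjusted p under 0.05, all higher, against 6.07% of all clusters in either direction, 2.76% higher and 3.31% lower. In bulk tissue, fewer cells of a type and less RNA per cell cannot be told apart.

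To let the genes' upstream sequence be read beside these changes, 3 promoter windows are shown, that of Anxa8 and those of the 2 called members for which a window was at hand, Anxa1 and Anxa11. Each runs from 250 bases before to 50 bases after the start site in RefSeq (GRCm38.p6), written 5′ to 3′ on the gene's strand. Capitals mark the core TGGAAA, or TTTCCA on the other strand, the short motif that TonEBP and other Rel-family NFAT factors recognise. The windows lie at chr14:34085729-34086028 on the plus strand for Anxa8, chr19:20390622-20390921 on the minus strand for Anxa1 and chr14:25841905-25842204 on the plus strand for Anxa11.
Anxa8: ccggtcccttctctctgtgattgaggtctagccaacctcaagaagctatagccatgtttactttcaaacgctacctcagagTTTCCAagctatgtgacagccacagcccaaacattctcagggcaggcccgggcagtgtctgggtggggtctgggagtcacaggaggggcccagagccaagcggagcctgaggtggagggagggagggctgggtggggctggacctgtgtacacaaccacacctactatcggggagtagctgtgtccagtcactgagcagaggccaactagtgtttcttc
Anxa1: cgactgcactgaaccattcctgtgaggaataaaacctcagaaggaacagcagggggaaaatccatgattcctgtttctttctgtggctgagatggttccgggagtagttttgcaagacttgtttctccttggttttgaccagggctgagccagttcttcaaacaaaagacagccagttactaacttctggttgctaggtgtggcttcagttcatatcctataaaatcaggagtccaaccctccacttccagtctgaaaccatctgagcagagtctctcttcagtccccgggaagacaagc
Anxa11: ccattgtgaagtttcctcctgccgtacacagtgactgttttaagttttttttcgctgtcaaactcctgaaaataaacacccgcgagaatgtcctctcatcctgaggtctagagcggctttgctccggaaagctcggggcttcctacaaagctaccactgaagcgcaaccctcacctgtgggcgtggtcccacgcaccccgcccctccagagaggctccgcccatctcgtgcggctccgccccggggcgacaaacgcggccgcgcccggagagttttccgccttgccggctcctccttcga
The Anxa8 window holds 1 core, at position -169, and the Anxa1 and Anxa11 windows hold none. Of 8 members with a window, 3 had a core: Anxa8, Anxa5 with 2 matches at -204 and -192, and Anxa7 at -211 in 1 of its 2 windows. Over all genes with a window, 23.9% had a core. The longer tonicity element consensus was in none of the members' 11 windows and in 4.96% of all windows. A match is a description of these letters and not a measured site.

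Anxa1 had signals of 16.82, 16.92 and 18.26 on the AF arrays of TonEBP +/- mice, against 16.06, 15.14 and 15.05 on those of WT mice. Every TonEBP +/- array was above every WT array, and array 3 was highest. The change was 1.91 (SE 0.352, 95% interval 1.16 to 2.66, adjusted p = 0.0143).

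Anxa3 had signals of 10.11, 9.64 and 11.72 in TonEBP +/- AF, against 8.91, 8.57 and 9.08 in WT AF. The groups did not overlap, but the TonEBP +/- arrays spread more (SD 1.09) than the WT arrays (SD 0.256). The change was 1.64 (SE 0.406, 95% interval 0.77 to 2.50, adjusted p = 0.0306).

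Anxa11 had signals of 12.05, 11.70 and 12.94 in TonEBP +/- AF, against 11.10, 10.55 and 11.01 in WT AF. The groups did not overlap here either. The change was 1.35 (SE 0.304, 95% interval 0.70 to 1.99, adjusted p = 0.0242).

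Anxa8 had signals of 11.69, 11.83 and 10.68 in TonEBP +/- AF, against 12.57, 14.01 and 13.67 in WT AF. Every TonEBP +/- array was below every WT array, and array 3, the highest for Anxa1, Anxa3 and Anxa11, was the lowest for Anxa8. The change was -2.02 (SE 0.347, 95% interval -2.75 to -1.28), given without a test.

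Anxa9, whose calcium-binding sites are altered relative to other annexins, also separated by genotype without passing the test. Its signals were 8.90, 8.46 and 8.44 in TonEBP +/- AF, against 8.99, 9.12 and 9.23 in WT AF, a change of -0.51 (95% interval -1.03 to 0.01, adjusted p = 0.222). Of the 9 members tested, Anxa9 was the 1 that separated and was lower, and Anxa1, Anxa3 and Anxa11 were 3 that separated and were higher, against 12.3% and 10% of all clusters.

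The other 5 annexins did not pass in the AF, and the TonEBP +/- and WT arrays of each overlapped. Anxa2, the plasminogen-binding annexin that pairs with S100a10, had a change of 0.51 (95% interval -0.24 to 1.26). Anxa6, which carries the annexin core in tandem, had one of 0.42 (-0.11 to 0.95), and Anxa4, known from epithelial membranes, one of 0.30 (-0.26 to 0.86). Anxa5, the phosphatidylserine binder of matrix vesicles, was at 0.06 (-0.64 to 0.75). Anxa7, which binds the calcium sensor sorcin (Sri), was above background on 1 of 3 TonEBP +/- arrays and 0 of 3 WT arrays of the AF, so no fold is given. The median change of the 10 members was 0.44, against -0.04 over all clusters.

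**Figure D2:**
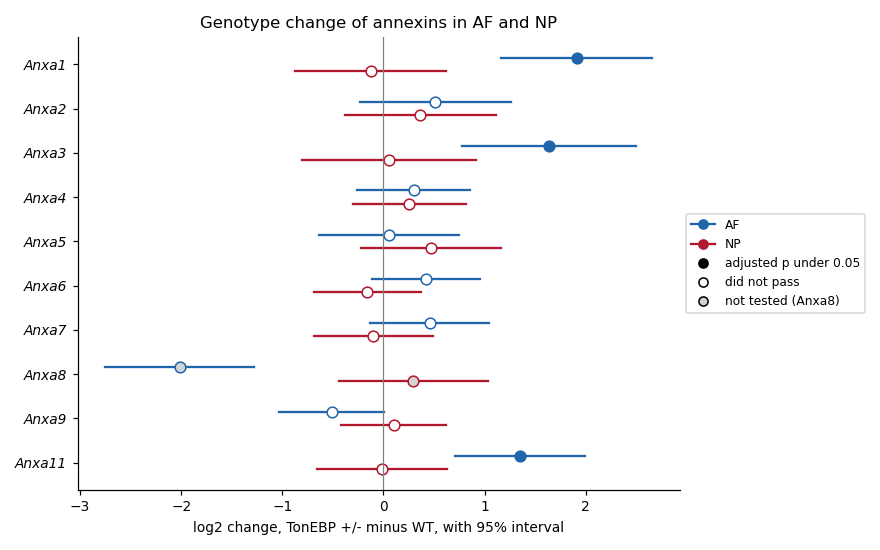
Genotype change of each annexin, TonEBP +/- minus WT, on the log2 scale with its 95% interval, in AF (upper point of each pair, blue) and NP (lower point, red). Filled points passed at an adjusted p under 0.05 and grey points are Anxa8, which was not tested. In AF, Anxa1, Anxa3 and Anxa11 lie right of 0 and Anxa8 lies left of it at -2.02, while the NP intervals all span 0.

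Markers of other cell types moved with genotype on the same AF arrays. The counts below stand against 2.76% of all clusters called higher in TonEBP +/- AF and 3.31% called lower. The mean signal of 10 neutrophil and myeloid precursor markers was 16.06 to 16.80 in TonEBP +/- AF and 14.98 to 15.50 in WT AF, and 4 of the 10 rose, with a median change of 1.43. S100a8 and S100a9, 2 of the 10, were at 19.52 to 19.92 on every AF array, close to the highest value of the arrays, 19.93. Macrophage markers averaged 9.27 to 10.24 in TonEBP +/- AF and 8.16 to 8.91 in WT AF (2 of 7 rose). Hypertrophic and mineralising markers averaged 11.33 to 12.35 in TonEBP +/- AF and 9.61 to 10.41 in WT AF. Of these, 5 of 6 rose (Ibsp, Alpl, Mmp13, Bglap and Phex). The other, Col10a1, did not, with signals of 10.46, 8.96 and 9.49 in TonEBP +/- AF, against 8.25, 10.70 and 11.30 in WT AF. Cartilage matrix markers averaged 11.57 to 12.75 in TonEBP +/- AF and 11.86 to 13.65 in WT AF, and 2 of 7 fell. Across the WT arrays, Anxa8 and the cartilage mean were both lowest on array 1 (12.57 and 11.86) and higher on arrays 2 and 3. Those 2 arrays stood in opposite order (Anxa8 14.01 and 13.67, cartilage 13.46 and 13.65). TonEBP +/- array 1 had a cartilage mean of 12.75, above WT array 1, but an Anxa8 signal of 11.69, below it. NP and notochord markers averaged 9.04 to 9.51 in TonEBP +/- AF and 9.58 to 11.12 in WT AF, highest on WT array 1, with a median change of -0.65. Of these 8 markers, Krt19 fell (-2.19, adjusted p = 0.0476). With each array of either tissue left out in turn, 1 of the 8 was called lower without WT array 3 or without TonEBP +/- array 2. None was called in any other omission. AF and tendon markers averaged 9.73 to 10.02 in TonEBP +/- AF and 8.91 to 9.63 in WT AF, and 2 of 8 rose and 1 fell: Col1a1 by 4.18 (adjusted p = 0.00772), Col1a2 by 3.70 (adjusted p = 0.0153) and Fmod by -2.11 (adjusted p = 0.00451). Stratified epithelium markers, in whose cells Anxa8 is known, were at 6.12 to 6.67 in TonEBP +/- AF and 6.44 to 6.63 in WT AF, with at most 1 of 7 above background on any array. The part of these cell types in the annexin changes was not tested. One further fit used the neutrophil marker mean as a covariate, added after the data were seen. In it the changes of Anxa1, Anxa3 and Anxa11 were 1.60, 1.21 and 1.41, and none passed (adjusted p = 0.366, 0.499 and 0.366). Over all clusters 2 passed in that fit, against 1347 in the main fit. The covariate itself separated the AF genotypes, so that fit cannot tell the 2 apart. The Anxa8 difference in that fit was -1.94.

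**Figure D3:**
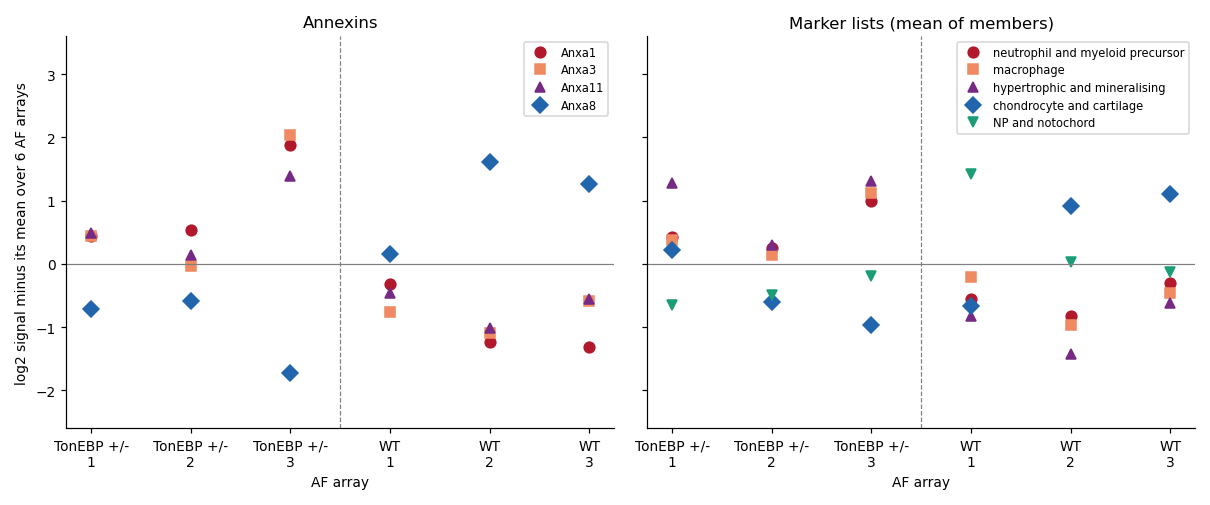
Log2 signal on each of the 6 AF arrays minus its mean over them, for 4 annexins (left) and for the mean of 5 marker lists (right). TonEBP +/- arrays stand left of the dashed line and WT arrays right of it. TonEBP +/- array 3 is the highest for Anxa1, Anxa3, Anxa11 and the neutrophil, macrophage, and hypertrophic and mineralising means. It is the lowest for Anxa8 and the cartilage mean.

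TonEBP +/- array 3 was the highest AF array for 6 of the 10 members and the lowest for 2, against 28.4% and 32.7% of all clusters. Without it, Anxa1 still passed (change 1.45, adjusted p = 0.0486), Anxa3 and Anxa11 did not (1.02 and 0.99, adjusted p = 0.109 and 0.103), and the Anxa8 difference was -1.66. Without it 0 of 10 neutrophil, 0 of 7 macrophage and 2 of 6 hypertrophic and mineralising markers were called higher, and 1 of 7 cartilage markers lower. Of the 8 AF and tendon markers, 1 was higher and 1 lower. Such losses were not particular to array 3. Without WT array 2, 0 neutrophil, 1 macrophage and 2 hypertrophic and mineralising markers were called higher and 1 cartilage marker lower. Without TonEBP +/- array 2 these counts were 4, 3, 5 and 2. The count of called members was 1 without TonEBP +/- array 1 or array 3 and 0 without WT array 2, with the AF arrays fitted on their own, or with the array's interquartile range as a covariate, also added later.

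In the NP, none of the 9 members tested passed, and none was under an unadjusted p of 0.05 in limma. Over all clusters 0.113% passed, all of them lower. The changes ran from -0.16 for Anxa6 to 0.47 for Anxa5. The median of the 10 members was 0.08, against 0.01 over all clusters.

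Anxa5 was the only member whose NP groups did not overlap. It had signals of 16.27, 16.43 and 16.26 in TonEBP +/- NP, against 15.59, 15.87 and 16.08 in WT NP (95% interval of the change -0.23 to 1.16). Over all clusters, 5.34% separated in this way and were higher.

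The 4 annexins that separated most by genotype in the AF had overlapping genotypes in the NP. Anxa8 had signals of 16.30, 16.26 and 16.43 in TonEBP +/- NP, against 15.97, 16.27 and 15.86 in WT NP. The lowest TonEBP +/- array was just under the highest WT array, and the change was 0.30 (95% interval -0.44 to 1.03), given without a test.

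Anxa1 had signals of 15.96, 15.64 and 15.99 in TonEBP +/- NP, against 15.72, 16.05 and 16.19 in WT NP, a change of -0.12 (-0.87 to 0.62). For Anxa3 the signals were 10.64, 10.88 and 11.05 in TonEBP +/- NP, against 10.23, 11.14 and 11.03 in WT NP (change 0.06, -0.80 to 0.92). For Anxa11 they were 13.79, 14.41 and 13.77 in TonEBP +/- NP, against 13.80, 13.97 and 14.24 in WT NP (change -0.01, -0.66 to 0.63). The replicate spread of the members was smaller in NP, with a median SD of 0.200 in TonEBP +/- and 0.235 in WT, than in AF, with 0.638 in TonEBP +/- and 0.292 in WT. The neutrophil and myeloid precursor markers ran the other way in this tissue, with means of 8.54 to 10.05 in TonEBP +/- NP and 10.78 to 12.18 in WT NP, and 3 of 10 fell. Erythroid markers averaged 6.80 to 6.93 in TonEBP +/- NP and 7.95 to 9.18 in WT NP, and 2 of 6 fell, with a median change of -1.76. Over all clusters, 0.113% were called lower in TonEBP +/- NP. The part of either marker list in the NP values was not tested.

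The genotype change in NP minus that in AF, the contrast by which Anxa8 was chosen, was 2.31 for Anxa8 (SE 0.491). Among the other members it was -2.04 for Anxa1 (SE 0.498), -1.58 for Anxa3 (SE 0.574) and -1.36 for Anxa11 (SE 0.430), opposite in sign to Anxa8. Next to these, Anxa9 was at 0.61 (SE 0.346), and the remaining 5 lay between -0.58 for Anxa6 and 0.41 for Anxa5. Averaged over both tissues, which the choice of Anxa8 did not use, none of the 10 members passed, against 0.0045% of all clusters. The averaged changes of Anxa1, Anxa3, Anxa11 and Anxa8 were 0.89, 0.85, 0.67 and -0.86 (adjusted p = 0.168, 0.216, 0.198 and 0.170), and these 4 were under an unadjusted p of 0.05 in limma.

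Most annexins had higher signals in the NP than in the AF. To compare the tissues, each array's median was subtracted, since as deposited the median cluster was 0.75 lower in NP than in AF in TonEBP +/- mice and 0.84 lower in WT mice. Averaged over genotypes, 8 of the 10 members were higher in NP, Anxa9 was lower, and Anxa1 did not pass, against 36.1% of all clusters higher and 37.2% lower (73.4% in either direction). The members' median difference was 3.29, against -0.10 over all clusters. As deposited it was 2.57, against -0.82, and under quantile normalization 2.00, against -0.07. The same 8 members were higher under all 3 scalings, with folds that were largest after median subtraction. Subtracting medians leaves the wider spread of the NP arrays in place (interquartile range 3.61 to 3.80, against 2.36 to 3.11 in AF), whereas quantile normalization equalizes it. The part of that spread in the folds was not tested.

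Anxa4 differed most between the tissues, 33.7-fold higher in NP (log2 difference 5.08, SE 0.193, adjusted p = 2.68e-12), with log2 differences of 4.36 as deposited and 3.81 under quantile normalization. Its signals as deposited were 13.83, 14.22 and 14.54 in NP of TonEBP +/- mice and 13.87, 14.02 and 13.94 in NP of WT mice, against 10.29, 9.32 and 9.97 in AF of TonEBP +/- mice and 9.37, 9.67 and 9.65 in AF of WT mice. Anxa5 followed at 25.1-fold (log2 4.65, adjusted p = 1.02e-10; 15.3-fold as deposited, 8.99-fold under quantile normalization), with AF signals of 12.54, 11.37 and 12.61 in TonEBP +/- mice and 11.74, 11.88 and 12.74 in WT mice. In both genes every NP array was above every AF array. Anxa8 was 22.4-fold higher in NP (log2 4.48, SE 0.236, adjusted p = 1.07e-10), 13.6-fold as deposited and 8.06-fold under quantile normalization.

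The tissue difference of Anxa8 was 5.62 (SE 0.334, 49.1-fold) in TonEBP +/- and 3.35 (SE 0.334, 10.2-fold) in WT mice, given without a test. As deposited these were 4.93 and 2.61, and under quantile normalization 4.30 and 1.72. Its highest mean was in NP of TonEBP +/- mice (16.33 ± 0.0864, SD, n = 3), then NP of WT (16.03 ± 0.215), AF of WT (13.42 ± 0.752) and AF of TonEBP +/- (11.40 ± 0.627). The NP groups, neighbours in this order, overlapped, and the other steps did not.

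Anxa6, Anxa11 and Anxa2 were higher in NP by 3.42, 3.15 and 3.05 on average, with adjusted p from 1.87e-10 to 3.31e-08. As deposited these were 2.71, 2.44 and 2.33, and under quantile normalization 2.31, 1.68 and 1.55. Anxa7 was also called higher (adjusted p = 2.54e-10), but in AF it was above background on 1 of 3 TonEBP +/- arrays and 0 of 3 WT arrays, so no average is given. Anxa7 had signals of 10.33, 10.32 and 10.38 in NP of TonEBP +/- mice and 10.28, 10.65 and 10.40 in NP of WT mice, against 7.55, 7.03 and 8.29 in AF of TonEBP +/- mice and 7.23, 6.92 and 7.36 in AF of WT mice. Set against the background level of the AF arrays, it was at least 6.11-fold higher in NP of WT mice as deposited, and at least 10.2-fold after each array's median was subtracted. Anxa6 averaged 11.97 ± 0.120 in TonEBP +/- NP and 12.13 ± 0.0896 in WT NP, against 9.55 ± 0.462 in TonEBP +/- AF and 9.13 ± 0.291 in WT AF (SD, n = 3 each). Anxa2 averaged 14.81 ± 0.391 in TonEBP +/- NP and 14.45 ± 0.355 in WT NP, against 12.56 ± 0.689 in TonEBP +/- AF and 12.05 ± 0.546 in WT AF.

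For Anxa3 and Anxa1 the tissue calls depended on the scaling. Anxa3 was 2.69 higher in NP than in AF of WT mice (adjusted p = 6.06e-05) and 1.06 higher in TonEBP +/- mice (adjusted p = 0.0459), where the tissues overlapped. The second call was lost as deposited (0.37, adjusted p = 0.420) and under quantile normalization (-0.00146, adjusted p = 0.998). It also held in only 2 of 12 omissions of an array (adjusted p up to 0.240). Anxa1 was 1.31 higher in NP than in AF of WT mice (adjusted p = 0.0059) and had a difference of -0.78 in TonEBP +/- mice (adjusted p = 0.0828). As deposited these were 0.57 (adjusted p = 0.151) and -1.47 (adjusted p = 0.00153), and under quantile normalization -0.46 (adjusted p = 0.211) and -1.89 (adjusted p = 0.000101), so the direction of Anxa1 in WT rested on the scaling. Its average over genotypes was 0.26 with medians subtracted (adjusted p = 0.372), -0.45 as deposited (adjusted p = 0.101) and -1.18 under quantile normalization (adjusted p = 0.000192).

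Anxa9 was lower in NP on average, by -0.64 on the log2 scale (adjusted p = 0.0037), and also as deposited and under quantile normalization. It was the only member called lower with medians subtracted and as deposited, whereas under quantile normalization Anxa1 was called lower too. Its signals were 7.63, 7.76 and 7.28 in NP of TonEBP +/- mice and 7.18, 7.89 and 7.30 in NP of WT mice, close to the background level, against the AF values above. It passed in WT (-0.92, adjusted p = 0.00407) and not in TonEBP +/- mice (-0.35, adjusted p = 0.230), where it passed as deposited (-1.05) and under quantile normalization (-0.70).

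In TonEBP +/- mice 7 of 9 tested members were higher in NP than in AF and none lower, against 30.9% of all clusters higher and 25.3% lower (56.2% in either direction). In WT mice 8 were higher and Anxa9 lower, against 33.7% of all clusters higher and 31.3% lower (65% in either direction). The NP markers averaged 13.96 to 14.10 in NP and 9.04 to 11.12 in AF, and the neutrophil markers 8.54 to 12.18 in NP and 14.98 to 16.80 in AF. Their part in the annexin differences was not tested.

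**Figure D4:**
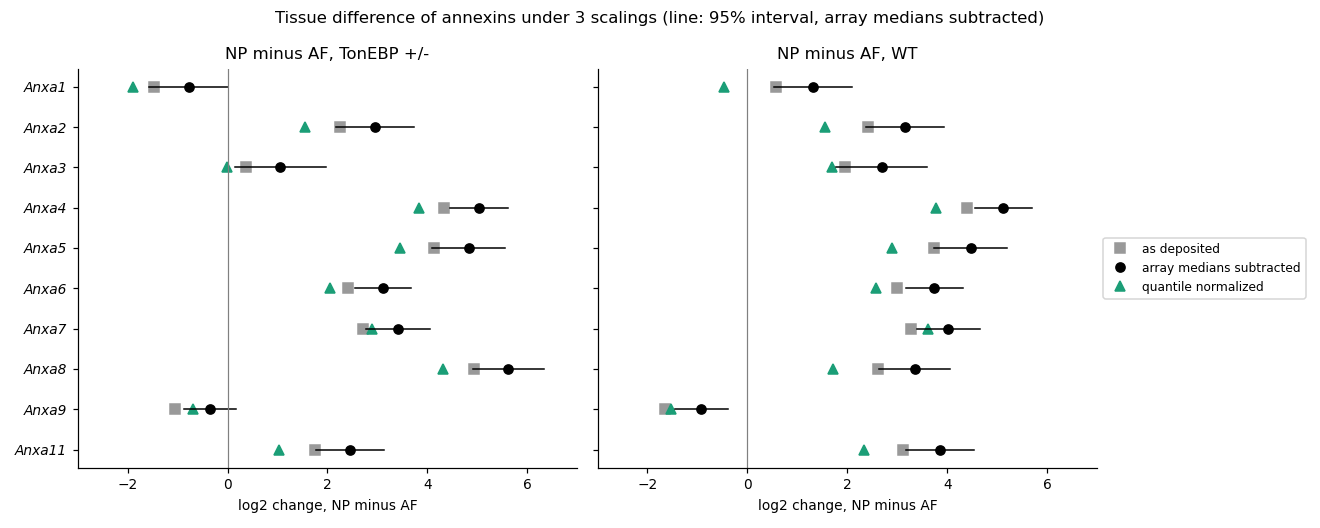
Tissue difference of each annexin, NP minus AF, in TonEBP +/- mice (left) and WT mice (right). Black points with 95% intervals are log2 differences after each array's median was subtracted, grey squares are the deposited values and green triangles follow quantile normalization. Anxa2, Anxa4 to Anxa8 and Anxa11 lie right of 0 under all 3 scalings in both genotypes, and Anxa1 in WT changes side.

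The partners of the annexins were read from lists. Between genotypes in AF, 2.76% of all clusters were called higher in TonEBP +/- mice and 3.31% lower. Of 10 S100 proteins, small calcium sensors that bind annexin tails, 1 rose in TonEBP +/- AF and none passed in NP. It was S100a11, the partner of Anxa1, with signals of 17.38, 16.53 and 17.45 in TonEBP +/- AF, against 16.53, 15.78 and 15.95 in WT AF (change 1.03, SE 0.270, adjusted p = 0.0369). The groups met at 16.53, and the call was lost under quantile normalization (0.38, adjusted p = 0.291). S100a10, the partner of Anxa2, was higher in NP than in AF by 4.03 in TonEBP +/- mice and 4.45 in WT mice (adjusted p = 2.62e-06 and 1.04e-06), and S100b, which was above background on 3 of the 6 AF arrays, by 4.57 and 3.48. In all, 5 S100 genes were higher and 3 lower in NP than in AF of each genotype, and under each of the other 2 scalings 4 were higher. Over all clusters, 30.9% were higher and 25.3% lower in TonEBP +/- mice, and 33.7% and 31.3% in WT mice. Among the 3 lower were S100a8 and S100a9, which are also in the neutrophil list.

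Of 13 membrane repair and calcium-bound membrane proteins, 2 rose in TonEBP +/- AF and none passed in NP. Capn1, the catalytic subunit of a calpain that cleaves annexins and other proteins during repair, rose by 1.16 (SE 0.281, adjusted p = 0.0289). Cpne3, a copine that binds phospholipids with calcium, had signals of 13.90, 13.95 and 14.51 in TonEBP +/- AF, against 12.88, 12.95 and 12.96 in WT AF (change 1.19, SE 0.221, adjusted p = 0.0146). Sri had a change of 0.97 (adjusted p = 0.116) and Pdcd6 of 0.34 (adjusted p = 0.620). Between the tissues, 6 of the 13 were higher and 3 lower in NP of TonEBP +/- mice, against 30.9% and 25.3% of all clusters. In WT mice 7 were higher and 1 lower, against 33.7% and 31.3% of all clusters. Under quantile normalization 3 of the 13 were lower in WT mice, and as deposited 5 were. Myof, a ferlin that fuses repair vesicles, was higher in NP by 4.87 in TonEBP +/- and 4.63 in WT mice. Pdcd6ip, an ESCRT adaptor, was higher by 2.75 and 3.48 in the same order and Capn2 by 3.09 and 2.66, whereas Capn1 was lower by -2.74 and -1.21.

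Of 7 genes of phosphatidylserine exposure, the lipid that Anxa5 binds, none passed between genotypes in either tissue. Nearest was Mfge8 in AF, with a change of -1.35 (adjusted p = 0.0564), which was called lower under quantile normalization (-1.62, adjusted p = 0.0374). In NP against AF, 4 were higher in each genotype, against 30.9% of all clusters in TonEBP +/- and 33.7% in WT mice. The scramblase Ano6 was higher by 2.48 in TonEBP +/- and 2.99 in WT mice, and the flippase Atp11a by 2.81 and 3.06. Its partner subunit Tmem30a was higher by 3.42 and 3.35, and Mfge8, which bridges phosphatidylserine to phagocytes, by 4.03 and 2.19. The Mfge8 difference in WT mice was 0.58 under quantile normalization (adjusted p = 0.293). Plscr1, a membrane protein of the scramblase family, was lower in NP of TonEBP +/- mice (-1.57, adjusted p = 0.00161) and had a difference of -0.57 in WT mice (adjusted p = 0.172).

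Of 6 measured genes of annexin receptors and fibrinolysis, 1 rose in TonEBP +/- AF. Kdr, a VEGF receptor and endothelial marker, had signals of 8.57, 9.15 and 10.10 in TonEBP +/- AF, against 7.46, 7.70 and 7.13 in WT AF. It was above background on no WT AF array, so it was at least 2.71-fold higher in TonEBP +/- AF (adjusted p = 0.026). Without TonEBP +/- array 3 none of these 4 AF calls held: the changes of Kdr, S100a11, Capn1 and Cpne3 were 1.43, 0.86, 0.90 and 0.99 (adjusted p = 0.122, 0.153, 0.129 and 0.0568). Leaving out each of the 12 arrays in turn, Cpne3 passed 11 times, Kdr and Capn1 8 times and S100a11 4 times. Omitting an NP array left these AF changes as they were. Among omissions of an AF array, Kdr passed only without TonEBP +/- array 1 or 2. Capn1 and S100a11 passed only without WT array 1 or TonEBP +/- array 2, and Cpne3 failed only without TonEBP +/- array 3. Endothelial markers averaged 7.81 to 8.79 in TonEBP +/- AF and 7.36 to 7.94 in WT AF. None of the 6 was higher in NP than in AF, against 30.9% of all clusters in TonEBP +/- and 33.7% in WT mice. Plaur, the urokinase receptor, was lower by -3.48 in TonEBP +/- and -1.60 in WT mice. The protease genes Plat and Plau and Kdr were also called lower, but on the arrays compared Plat was above background on none in either genotype and Plau and Kdr on none in WT, so those calls set signals below background against each other. In TonEBP +/- mice Kdr was at least 2.64-fold lower in NP, and Plau was above background on 1 of 3 AF arrays. The formyl peptide receptor genes Fpr1 and Fpr2 and the gene Ahnak were also in this list, but no cluster was found under their names. Anxa10 and Anxa13, the annexins outside the 10, were above background on no array.

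The clusters most like Anxa8 were sought among 9251 named clusters above background on at least 6 arrays, by Pearson correlation over the 12 arrays after each tissue's mean was subtracted. The 5 highest were Tspan3 (r = 0.942), Wtip (0.940), Serpina1e (0.936), Fn1 (0.936) and Glipr1l2 (0.932). Within the AF arrays r was 0.947 to 0.976 for these 5, and within the NP arrays it was 0.0592 for Serpina1e and 0.597 to 0.920 for the other 4. Anxa8 spread over AF arrays with an SD of 1.27 and over NP arrays with an SD of 0.219, so the AF arrays carried most of the likeness. Among the members, the correlation with Anxa8 was -0.960 for Anxa1, -0.914 for Anxa11 and -0.827 for Anxa3, and 0.695 for Anxa9. Within the AF arrays these were -0.984, -0.956, -0.894 and 0.864 in the same order. Within the NP arrays they were -0.155, -0.291, 0.336 and 0.481, so Anxa3 changed sign. All these values share the same 12 arrays and are a description.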

How the data were processed

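RNA from NP and AF of TonEBP +/- and WT mice, 3 samples per group, was isolated on RNeasy Mini columns. Per the labels, biotin-labelled cDNA was made from it with the GeneChip WT Plus kit, and the arrays were of the Clariom S Mouse type. The deposited values are log2 RMA signals, which the authors made with Affymetrix Expression Console and RMA, per the submitters' processing notes. RMA corrects background, equalizes the signal distributions of the arrays normalized together and combines probes. Which arrays were normalized together is not given in the sources used here, so tissue differences were computed after each array's median was subtracted.

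Of 28846 probe sets, 6640 controls were left out and 22206 clusters were tested. A gene symbol from the platform annotation was found for 19572 clusters, and 2634 were unnamed. No 2 arrays were duplicates (smallest SD of a difference 0.414 log2). In R 4.3.3 with limma 3.58.1, all 12 arrays entered 1 linear model with 4 group means (8 residual degrees of freedom, 7.93 prior degrees of freedom from eBayes without a trend). P-values were adjusted by Benjamini and Hochberg over all clusters and called under 0.05. The fit was tested on simulated data. Promoters were searched in Python 3.11.15, and matplotlib 3.10.9 drew the figures.

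All 10 members are named, with Nfat5. From the partner lists, called clusters are named, as are a few that did not pass and bear on a member; from marker lists, counts and means are given. The members and lists were chosen with earlier results of these data known. A fold against a group with 0 of 3 arrays above background is given as at least the fold over the background level. Promoters are from RefSeq (GRCm38.p6). Of the lists, marker genes of erythroid cells, endothelium and skeletal muscle served to describe the samples: erythroid markers averaged 11.11 to 11.79 in TonEBP +/- AF and 11.47 to 11.63 in WT AF, and at most 2 of 7 muscle markers were above background on any array. Alternatives were other scalings, filters, array weights, a trend, fits by tissue, leaving out each array, and 2 covariates added after the data were seen.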

Additional observations from a re-analysis of the deposited data

How the results depend on the processing

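The count of members called in AF (3) was 5 with array quality weights, whose iteration did not converge, 0 with the AF arrays fitted on their own, 0 with either covariate (neutrophil marker mean or interquartile range), and 0 to 3 when an array was left out. The calls over all clusters moved with it, at 7187 with weights, 3 with AF alone, 2 and 38 with the covariates and 81 to 4029 over the omissions, against 1347. Anxa1, Anxa3 and Anxa11 kept their direction throughout, with changes of 1.27 to 2.23, 0.89 to 2.06 and 0.92 to 1.61 and adjusted p of 0.000231 to 0.366, 0.00109 to 0.499 and 0.000489 to 0.366. They passed in 11, 7 and 9 of 12 omissions, but 6 of the 12 left out an NP array, which leaves the AF change as it was. Every lost call came with an AF array left out. For Anxa1 this was WT array 2, and for Anxa11 it was TonEBP +/- array 1 or 3 or WT array 2. Anxa3 was lost without TonEBP +/- array 1 or 3 or any WT array, so among the AF omissions it passed only without TonEBP +/- array 2. The count in NP was 0 in all 21 settings. The averaged genotype count (0) was 6 with array quality weights and 0 to 4 when an array was left out, at 4 without AF array 2 of TonEBP +/-. Over all clusters that comparison called 2408 with weights and 0 to 1033 over the omissions (1033 without AF array 2 of TonEBP +/-), against 1 in the main fit. Under quantile normalization, Anxa1 turned to -0.46 in NP against AF of WT mice and to -1.18 averaged over genotypes (called, adjusted p = 0.000192; -0.45 as deposited), and Anxa3 to -0.00146 in TonEBP +/- mice. Why these values moved was not tested. The tissue counts stayed at 6 to 7, 9, and 9 to 10 members in TonEBP +/-, in WT and on average when an array was left out. Over all clusters the counts were 10765 to 13583, 13019 to 15118 and 15663 to 16898 in the same order. The main fits called 12478, 14423 and 16289. Within the member counts, the Anxa3 call in TonEBP +/- mice held in 2 of 12 omissions. Anxa8's difference between the tissues' genotype changes ran from 1.94 to 2.74. Of all clusters called, 45.4% were higher in AF of TonEBP +/- as deposited, 55.9% with medians subtracted and 44.8% under quantile normalization. In NP against AF, 54.9% of calls were higher in TonEBP +/- and 51.8% in WT with medians subtracted, 26.9% and 28.3% as deposited, and 50.5% and 49.8% under quantile normalization. No alternative with a second cluster per gene was run, since each member has 1. No paired analysis was possible because the labels give the groups no shared replicate or animal numbers. Signal near background limits Anxa7 in AF and Anxa9 in NP.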
